A study of Homo sapiens with 18 samples.

Results

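Transcript levels of 10 genes of centriole duplication and the centrosome were followed in RPE1 cells, a telomerase-immortalised human line derived from retinal pigment epithelium. The 10 genes, PLK4, STIL, SASS6, CEP152, CEP192, CEP63, CENPJ, CEP135, CCP110 and PCNT, were chosen by name for their place in the pathway, and each matched a single entry of the 57773 genes in the deposited table. Polyadenylated RNA had been sequenced from 18 libraries in 6 groups of 3 biological replicates. The groups were cytochalasin D 4N, cytochalasin D 2N, ZM447439 4N, ZM447439 2N, untreated 4N and untreated 2N cells. Cytochalasin D blocks actin polymerisation and with it cytokinesis, and ZM447439 inhibits Aurora kinases. According to the protocol text, which stands on every library alike, cells grew in 10% serum, ZM447439 was used for 24 h at 2.5 µM, and sorting by DNA content followed 60 min of Hoechst dye at 2 µg/mL. Dose and time of cytochalasin D are not stated there. A 4N sort can hold both diploid cells that have replicated their DNA and tetraploid cells that have not, and does not separate them.

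The centrosome is built around a pair of centrioles and the pericentriolar material that nucleates microtubules, and centrioles are copied in step with the cell cycle. The kinase PLK4, brought to the parent centriole by CEP152 and CEP192, acts with STIL and SASS6 to start the cartwheel from which a new centriole grows. CENPJ and CEP135 build and stabilise its microtubule wall, CCP110 caps its end, and PCNT anchors the surrounding material. A cell that fails cytokinesis keeps its extra centrosome along with its duplicated genome.

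The deposited values were RPKM, reads scaled to library size and gene length, and the length was that of the whole gene from first to last base, introns included. Long genes therefore have low RPKM, and 8 of the 10 genes averaged below 0.5 RPKM over the 18 libraries, all but PLK4 (0.967 RPKM) and CCP110 (0.894 RPKM). They were nevertheless well covered: the lowest value, that of SASS6 in a cytochalasin D 4N library, stood for 91 reads, and the highest, that of PCNT, for 6024 reads. Implied library sizes were 51135642 to 78294394 reads. Differences were therefore tested on log2(RPM + 0.5), where RPM is the same scaling to library size without the length, for the 17974 genes with a mean of at least 1 RPM. All 10 genes were among them. Differences below are log2 with the standard error (SE) from limma, p is adjusted by Benjamini-Hochberg over all 17974 genes, and a gene is said to have risen or fallen where the adjusted p was under 0.05. Values are relative to the implied size of a library in bulk samples and are not strictly shares of its reads. Fewer cells of a kind and less RNA per cell therefore cannot be told apart. Of the markers of the labelled tissue, OTX2 (median 9.9 RPKM per exon length), MITF (4.77) and the keratin KRT18 (85) were present, while RPE65, RLBP1, TYR and TTR, genes of mature pigment epithelium, had medians of at most 0.122. PMEL, another gene of pigment cells, was present at a median of 5.59 and a range of 2.18 to 22.8 on that scale. The marker BEST1 was not read, since its exons overlap those of FTH1 on the opposite strand and the libraries did not mark strand. Of the blood markers, CD3E and HBB had a median of 0 and PTPRC of 0.034 RPKM per exon length.

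In 6 libraries the values deviated more from their group than in the others: replicate 1 of the 4 drug groups and replicate 3 of both untreated groups had root mean square deviations of 0.161 to 0.241 on the log2 scale, against 0.094 to 0.146 in the other 12. All 10 were highest in replicate 3 of the untreated 4N cells and lowest in replicate 3 of the untreated 2N cells, and 9 of 10 were highest in replicate 1 of the ZM447439 2N cells. Replicate 1 was the highest for 7 of 10 in each cytochalasin D group, while in ZM447439 4N cells it was the highest for 4 and the lowest for 4. Results that turn on these libraries are given with and without them. The 6 were picked from these same values as the farthest from their group mean, so leaving them out lowers the error by construction. For CCP110 between the untreated sorts the SE was 0.2686 with them and 0.0588 without them. The fit without them has 6 residual degrees of freedom, and its adjusted p values are too small to be read as independent tests.

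PLK4, the kinase that starts duplication, had the widest range of the 10 genes. It stood at 0.282, 0.189 and 0.201 RPKM in cytochalasin D 4N cells, at 0.702, 0.519 and 0.519 RPKM in ZM447439 4N cells, and at 2.87, 2.76 and 3.29 RPKM in untreated 4N cells. In 2N cells it stood at 0.235, 0.114 and 0.0956 RPKM with cytochalasin D, at 0.606, 0.364 and 0.316 RPKM with ZM447439, and at 1.55, 1.54 and 1.26 RPKM untreated. Every drug library was thus below every untreated library of either sort, and the 2 sorts overlapped under each drug but not in untreated cells. In both sorts, and under both drugs, replicate 1 was the highest of its group.

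STIL, which binds PLK4 and recruits SASS6, had 0.114, 0.0926 and 0.0904 RPKM in cytochalasin D 4N cells, 0.198, 0.181 and 0.193 RPKM in ZM447439 4N cells, and 0.846, 0.828 and 1.02 RPKM in untreated 4N cells. In 2N cells it had 0.1, 0.0661 and 0.0752 RPKM with cytochalasin D, 0.181, 0.144 and 0.142 RPKM with ZM447439, and 0.39, 0.375 and 0.32 RPKM untreated. Its 6 groups kept the order of PLK4, and only the 2 sorts under cytochalasin D overlapped. The ZM447439 sorts were barely apart, with the highest 2N library at 0.1806 RPKM and the lowest 4N library at 0.1809 RPKM. Counting error, taken as Poisson, was 5.98% at the lowest STIL value, and limma did not call this difference (adjusted p = 0.199). The share of all genes whose groups stay apart in this way was not counted. SASS6, the protein of the cartwheel spokes, was the least covered: it had 0.0569, 0.0351 and 0.0436 RPKM in cytochalasin D 4N cells, 0.0937, 0.0938 and 0.0852 RPKM in ZM447439 4N cells and 0.27, 0.278 and 0.358 RPKM in untreated 4N cells. Its untreated 2N cells had 0.191, 0.197 and 0.189 RPKM, above all drug libraries and below all untreated 4N libraries.

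**Figure D1:**
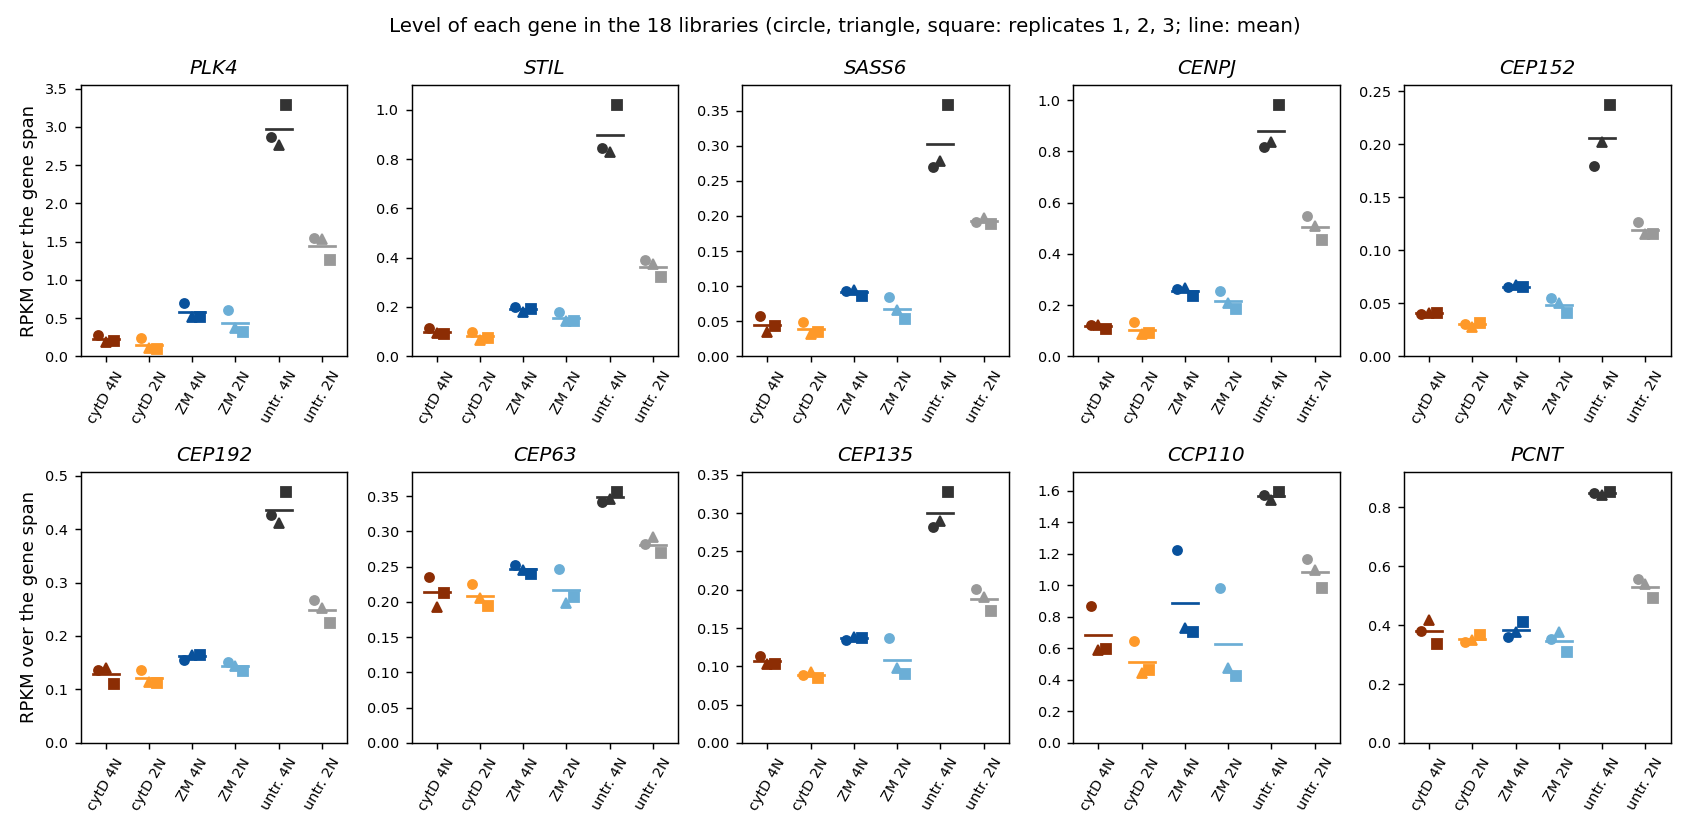
Level of each of the 10 genes in the 18 libraries, in RPKM over the gene span, by group; circles, triangles and squares are replicates 1, 2 and 3, and lines are group means (n = 3). In all 10 panels the untreated 4N cells are highest, and in CCP110 replicate 1 of each drug group lies well above the other libraries of its group.

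CENPJ, which sets centriole length, ran from 0.107 to 0.124 RPKM in cytochalasin D 4N cells, from 0.233 to 0.267 RPKM in ZM447439 4N cells, from 0.819 to 0.981 RPKM in untreated 4N cells and from 0.455 to 0.546 RPKM in untreated 2N cells. CEP152 had 0.0403, 0.0404 and 0.0404 RPKM in cytochalasin D 4N cells, 0.0651, 0.067 and 0.0653 RPKM in ZM447439 4N cells, and 0.18, 0.202 and 0.237 RPKM in untreated 4N cells. Its 6 groups did not overlap between neighbours in the order untreated 4N, untreated 2N, ZM447439 4N, ZM447439 2N, cytochalasin D 4N, cytochalasin D 2N. It was the only one of the 10 genes for which this held, and the share of all genes for which it holds was not counted. The gap was narrowest between the lowest ZM447439 2N library, at 0.0407 RPKM, and the highest cytochalasin D 4N library, at 0.0404 RPKM. Counting error, taken as Poisson, was 7.45% at the lowest CEP152 value. This gap and the spread within cytochalasin D 4N cells were both smaller, so the separation of these groups may rest on the sampling of reads.

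At the other end stood CEP63, which helps to place CEP152 at the parent centriole. It had 0.236, 0.193 and 0.212 RPKM in cytochalasin D 4N cells, 0.253, 0.246 and 0.24 RPKM in ZM447439 4N cells, 0.342, 0.346 and 0.356 RPKM in untreated 4N cells, and 0.283, 0.292 and 0.269 RPKM in untreated 2N cells. The lowest drug library was thus still above 0.5 times any untreated library, and the 4 drug groups overlapped along their order. CEP63 exons share 306 bases, 2.95% of their length, with the exons of ANAPC13 on the opposite strand, and reads there cannot be assigned. CEP152 exons likewise share 1.81% and 2.28% of their length with exons of 2 genes on the opposite strand, and SASS6 exons share 7.35% with those of a gene on the same strand. PCNT, the scaffold of the pericentriolar material, had 0.38, 0.419 and 0.337 RPKM in cytochalasin D 4N cells, 0.36, 0.376 and 0.411 RPKM in ZM447439 4N cells, 0.848, 0.84 and 0.852 RPKM in untreated 4N cells, and 0.556, 0.54 and 0.493 RPKM in untreated 2N cells. The 4 drug groups of PCNT overlapped along their order, whichever the drug or sort.

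CCP110, the cap protein, varied most within groups. It had 0.871, 0.589 and 0.593 RPKM in cytochalasin D 4N cells, 1.23, 0.729 and 0.705 RPKM in ZM447439 4N cells, 1.57, 1.54 and 1.59 RPKM in untreated 4N cells, and 1.17, 1.1 and 0.982 RPKM in untreated 2N cells. Replicate 1 of the ZM447439 4N cells lay above all 3 untreated 2N libraries, while the other 2 lay below them. CEP192, which recruits PLK4 and builds the matrix, and CEP135, which links cartwheel and wall, lay between these extremes: CEP192 averaged 0.129 ± 0.0156 RPKM in cytochalasin D 4N cells, 0.162 ± 0.0059 RPKM in ZM447439 4N cells and 0.436 ± 0.0304 RPKM in untreated 4N cells (SD, n = 3 each), and CEP135 averaged 0.106 ± 0.0057 RPKM, 0.137 ± 0.0023 RPKM and 0.3 ± 0.0245 RPKM in these groups in turn.

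Levels can be set between genes only per exon length, here the joined length of all exons annotated for a gene. This length was 4482 bases for PLK4, 8168 for CEP152 and 10385 for CEP63. The order of the genes depends on that choice of length. On that scale PLK4 was the highest of the 10 in untreated 4N cells, at 12.2 ± 1.14 RPKM, followed by PCNT at 8.83 ± 0.0655 RPKM and STIL at 7.88 ± 0.929 RPKM, and CEP152 was the lowest at 2.48 ± 0.347 RPKM (SD, n = 3). In cytochalasin D 4N cells PLK4 averaged 0.917 ± 0.207 RPKM and STIL 0.868 ± 0.113 RPKM per exon length, below CEP63 at 1.84 ± 0.181 RPKM and PCNT at 3.95 ± 0.427 RPKM. In ZM447439 4N cells PLK4 averaged 2.37 ± 0.433 RPKM, beside CEP63 at 2.12 ± 0.0555 RPKM and below PCNT at 3.99 ± 0.276 RPKM.

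The promoters of PLK4, STIL and CENPJ, which had the 3 largest differences between cytochalasin D 4N and untreated 4N cells, of CEP152, whose groups did not overlap, and of CEP63, which had the smallest difference, are shown for the letters they hold, from RefSeq on GRCh38.p14, as 250 bases before to 50 bases after an annotated start, read 5′ to 3′ on the strand of the gene. PLK4 is shown with 2 of its 3 windows, on the plus strand at chr4:127880643-127880942 and chr4:127880982-127881281. STIL lies on the minus strand at chr1:47314098-47314397, CENPJ on the minus strand at chr13:24922812-24923111, CEP152 on the minus strand at chr15:48811020-48811319, and the first of 2 windows of CEP63 on the plus strand at chr3:134485474-134485773. Capitals mark matches on either strand. The motif of the cell cycle genes homology region was searched as TTTGAA, which reads TTCAAA on the other strand, and as its variant TTCGAA, which reads alike on both strands. The E2F-type motif was searched as TTCCCGC, as the related form TTGGCGC, as a further form TTCGCGC and as a last form TTGCCGC. A match of TTGGCGC can overlap its own reverse form GCGCCAA.
PLK4 window 1: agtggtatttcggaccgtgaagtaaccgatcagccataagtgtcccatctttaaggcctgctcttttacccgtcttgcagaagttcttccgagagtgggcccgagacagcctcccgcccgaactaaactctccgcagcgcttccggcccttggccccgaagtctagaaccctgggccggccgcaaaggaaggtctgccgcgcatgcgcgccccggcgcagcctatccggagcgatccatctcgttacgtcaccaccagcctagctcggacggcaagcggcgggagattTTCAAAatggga
PLK4 window 2: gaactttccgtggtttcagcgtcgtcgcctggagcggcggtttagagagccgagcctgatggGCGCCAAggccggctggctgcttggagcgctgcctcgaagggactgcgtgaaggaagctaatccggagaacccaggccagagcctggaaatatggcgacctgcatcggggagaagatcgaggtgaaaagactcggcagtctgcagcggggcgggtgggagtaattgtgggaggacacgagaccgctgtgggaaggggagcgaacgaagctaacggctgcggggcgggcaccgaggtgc
STIL: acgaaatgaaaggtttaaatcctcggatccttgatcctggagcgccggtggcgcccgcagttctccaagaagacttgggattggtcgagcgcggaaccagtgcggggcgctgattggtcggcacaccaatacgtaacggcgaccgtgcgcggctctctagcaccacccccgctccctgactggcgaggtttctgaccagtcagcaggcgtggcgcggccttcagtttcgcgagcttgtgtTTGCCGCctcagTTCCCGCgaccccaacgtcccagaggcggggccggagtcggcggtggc
CENPJ: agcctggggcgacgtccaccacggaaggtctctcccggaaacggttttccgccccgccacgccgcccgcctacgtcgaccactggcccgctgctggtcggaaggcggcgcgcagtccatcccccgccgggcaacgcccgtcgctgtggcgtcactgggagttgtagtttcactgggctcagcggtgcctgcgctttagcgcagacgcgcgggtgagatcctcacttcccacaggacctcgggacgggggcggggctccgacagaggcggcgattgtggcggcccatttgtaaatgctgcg
CEP152: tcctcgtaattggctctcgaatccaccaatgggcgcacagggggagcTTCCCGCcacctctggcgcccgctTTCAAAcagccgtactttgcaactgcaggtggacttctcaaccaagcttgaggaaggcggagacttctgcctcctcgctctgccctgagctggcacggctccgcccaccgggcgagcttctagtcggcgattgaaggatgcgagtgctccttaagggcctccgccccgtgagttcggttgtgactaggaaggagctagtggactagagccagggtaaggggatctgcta
CEP63 window 1: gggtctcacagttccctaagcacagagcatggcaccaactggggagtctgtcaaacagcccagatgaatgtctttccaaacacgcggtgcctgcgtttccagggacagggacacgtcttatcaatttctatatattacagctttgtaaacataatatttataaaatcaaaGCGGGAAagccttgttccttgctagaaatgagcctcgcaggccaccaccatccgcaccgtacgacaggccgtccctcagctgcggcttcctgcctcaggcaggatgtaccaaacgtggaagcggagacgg
An E2F-type motif stood in at least 1 window of 6 of the 10 genes (PLK4, STIL, SASS6, CEP152, CEP192 and CEP63), against 15.3% of the 27305 genes with a promoter of this length, and in 7 of 14 windows, against 13% of 35116 windows. The homology motif stood in 4 of 10 genes (PLK4, CEP152, CEP192 and CEP135), against 19.5% of genes. CENPJ, CCP110 and PCNT held neither set of letters in these windows, and CEP63 held an E2F-type motif in both of its windows. The relation of motifs to the size of the differences was not tested. The motifs are described by their letters, and binding was not measured.

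Whether each drug changed the pathway was asked first within 4N cells. All 10 genes fell with cytochalasin D and all 10 fell with ZM447439 relative to untreated 4N cells, with median log2 differences of -1.97 and -1.49. Over all genes, 42.3% were lower with cytochalasin D and 34.9% with ZM447439, and the medians were -0.09 and -0.05. PLK4 and STIL had the largest differences. PLK4 fell by 3.59 ± 0.26 with cytochalasin D (adjusted p = 5.4e-09), and by 2.31 ± 0.26 with ZM447439 (adjusted p = 1.99e-06). STIL fell by 3.09 ± 0.14 with cytochalasin D (adjusted p = 2.94e-11), and by 2.18 ± 0.14 with ZM447439 (adjusted p = 6.62e-09). CENPJ changed by -2.77 ± 0.14 with cytochalasin D and -1.74 ± 0.14 with ZM447439, and SASS6 by -2.51 ± 0.17 and -1.62 ± 0.17. The recruiters followed, CEP152 at -2.21 ± 0.10 and -1.57 ± 0.10, and CEP192 at -1.73 ± 0.10 and -1.41 ± 0.10. CEP135, PCNT and CCP110 changed by -1.44, -1.16 and -1.199 with cytochalasin D and by -1.10, -1.14 and -0.86 with ZM447439. CEP63 changed least, by -0.69 ± 0.08 and -0.49 ± 0.08. The CCP110 call with ZM447439 (adjusted p = 0.0122) was lost without replicate 2 or without replicate 3 of the ZM447439 4N cells (adjusted p = 0.0513 and 0.0558).

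In 2N cells all 10 genes again fell with each drug, by medians of -1.44 with cytochalasin D and -1.02 with ZM447439, where 37.5% and 31.2% of all genes were lower. PLK4 fell by 3.15 ± 0.26 with cytochalasin D (adjusted p = 3.23e-08) and by 1.74 ± 0.26 with ZM447439 (adjusted p = 3.46e-05). CENPJ, STIL and SASS6 changed by -2.17, -2.08 and -2.07 with cytochalasin D and by -1.19, -1.18 and -1.40 with ZM447439. PCNT changed by -0.58 ± 0.08 and -0.61 ± 0.08, and CEP63 by -0.43 ± 0.08 and -0.37 ± 0.08. The CCP110 call with ZM447439 (-0.86, adjusted p = 0.0119) was lost without replicate 2 or replicate 3 of the ZM447439 2N cells (adjusted p = 0.0563 and 0.0698). The comparisons with 4N and 2N cells have no libraries in common, but the 2 drugs share the untreated libraries within a sort.

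**Figure D2:**
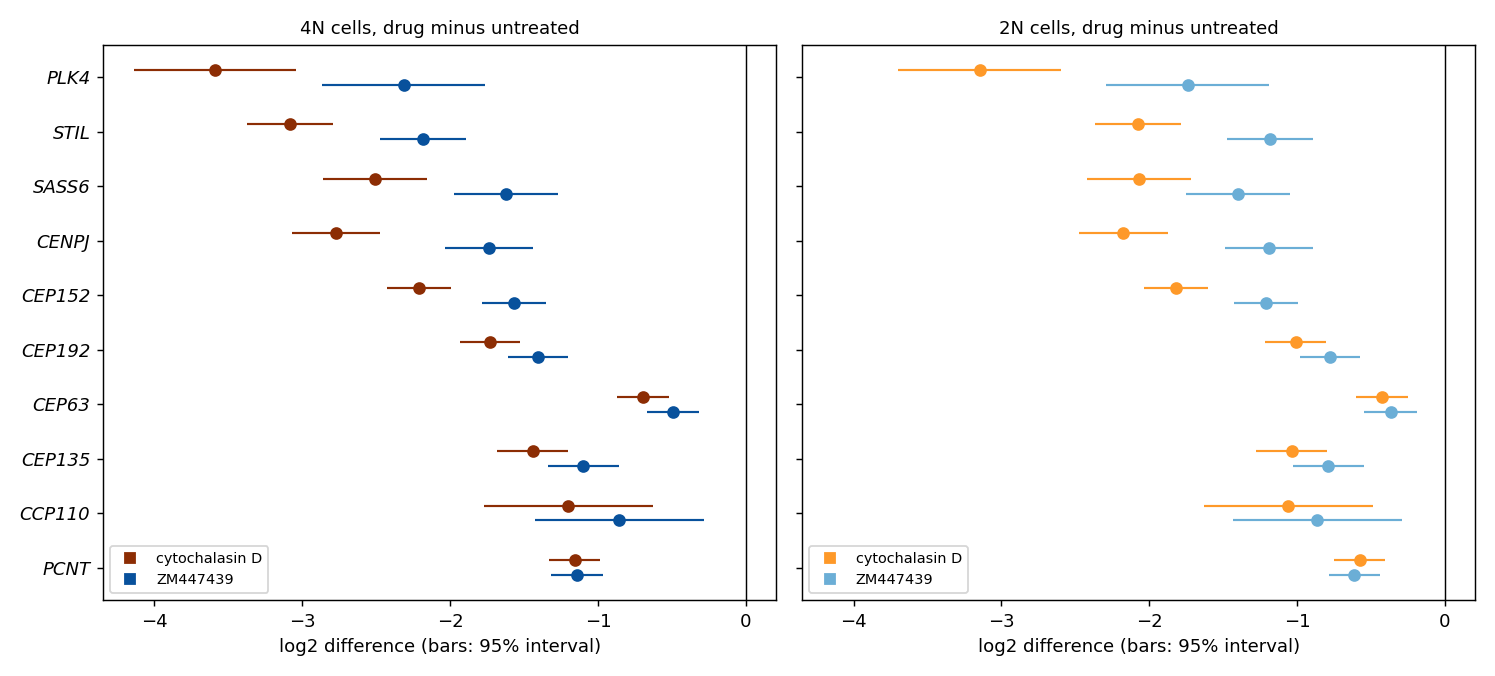
Log2 difference of each gene between drug-treated and untreated cells, in 4N cells on the left and 2N cells on the right; points are estimates, bars are 95% intervals from limma, and filled points have an adjusted p under 0.05. All 40 points are filled and lie below 0, with PLK4 farthest from 0 in each drug and sort and CEP63 nearest.

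Genes of other cell cycle phases moved with these falls. The summed level of 16 G2/M genes was 430.6 to 474.9 RPM in cytochalasin D 4N cells and 829.6 to 1086 RPM in ZM447439 4N cells, against 5234 to 5658 RPM in untreated 4N cells. In 2N cells it was 169.3 to 314.0 RPM with cytochalasin D and 256.6 to 549.5 RPM with ZM447439, against 1435 to 1940 RPM untreated. All 16 fell in each of the 4 comparisons. Of 16 G1/S and replication genes, whose summed level was 292.9 to 306.2 RPM in cytochalasin D 4N cells and 775.4 to 810.3 RPM in ZM447439 4N cells against 2072 to 2084 RPM in untreated 4N cells, 15 fell with cytochalasin D and 13 with ZM447439. The part of cell cycle phase in the falls of the 10 genes was not tested.

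Since an untreated 4N sort can hold cells in G2 and mitosis, drug-treated 4N cells were also compared with untreated 2N cells. With cytochalasin D all 10 genes were lower, by a median of -1.19, where 37.8% of all genes were lower. The difference was -2.56 ± 0.26 for PLK4 (adjusted p = 3.42e-07), -1.98 ± 0.14 for CENPJ, -1.89 ± 0.17 for SASS6 and -1.79 ± 0.14 for STIL, against -0.48 ± 0.08 for PCNT and -0.39 ± 0.08 for CEP63. With ZM447439, 8 of 10 were lower, by a median of -0.70, where 26.2% of all genes were lower. PLK4 differed by -1.29 ± 0.26 (adjusted p = 0.000777) and SASS6 by -1.003 ± 0.17, while CEP63 (-0.19 ± 0.08, adjusted p = 0.0737) and CCP110 (-0.33 ± 0.27, adjusted p = 0.332) did not pass. CEP63 passed with the compared libraries alone (adjusted p = 0.0255) and without replicate 1 of the ZM447439 2N cells (0.0329). Without the 6 libraries that stood apart all 10 passed, at -0.24 for CEP63 and -0.65 for CCP110, where 33.5% of all genes were lower. The CCP110 call with cytochalasin D (-0.67, adjusted p = 0.0368) was lost without replicate 2 or 3 of the cytochalasin D 4N cells, or without replicate 1 or 2 of the untreated 2N cells (adjusted p = 0.0774 to 0.114), and also with no filter (0.0721), with RPKM + 0.01 (0.0646), under a common median ratio (0.0516) and under quantile normalization (0.0711). Without the 6 libraries, a choice that lowers the error by construction, it was -0.92 (adjusted p = 2.52e-10). In these comparisons all 16 G1/S genes were lower with each drug, and 16 of the 16 G2/M genes with cytochalasin D and 11 with ZM447439.

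The drugs were set against each other in 4N cells. Of the 10 genes, 7 were lower with cytochalasin D than with ZM447439, by a median over the 10 of -0.49, where 27.1% of all genes were lower. PLK4 differed by -1.28 ± 0.26 (adjusted p = 0.000948), CENPJ by -1.03 ± 0.14, STIL by -0.90 ± 0.14, SASS6 by -0.89 ± 0.17 and CEP152 by -0.64 ± 0.10. CEP135 (-0.34 ± 0.11, adjusted p = 0.0213) and CEP192 (-0.32 ± 0.10, adjusted p = 0.0119) also passed. The CEP192 call was lost without replicate 3 of the cytochalasin D 4N cells (adjusted p = 0.0697), and the CEP135 call without replicate 2 or 3 of either group (adjusted p = 0.0523 to 0.0632) and with RPKM + 0.01 (0.0508). CEP63 differed by -0.20 (95% interval -0.38 to -0.03, adjusted p = 0.0568), CCP110 by -0.34 (interval -0.91 to 0.23) and PCNT by -0.02 (interval -0.19 to 0.16), and these 3 did not pass. With the replicate number as a block CEP63 passed (-0.20, adjusted p = 0.026). CEP63 and CCP110 passed without the 6 libraries (-0.25 and -0.27), where 36.2% of all genes were lower. All 16 G2/M genes and all 16 G1/S genes were also lower with cytochalasin D than with ZM447439.

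Within each treatment, 4N cells were compared with 2N cells. In untreated cells 9 of the 10 genes were higher in the 4N sort, by a median over the 10 of 0.72, where 15.2% of all genes were higher and the median was 0.04. STIL was higher by 1.29 ± 0.14 (adjusted p = 1.01e-05) and PLK4 by 1.03 ± 0.26 (adjusted p = 0.00981). CEP192, CENPJ, CEP152, PCNT, CEP135 and SASS6 were higher by 0.81, 0.79, 0.76, 0.67, 0.66 and 0.62, and CEP63 by 0.30 ± 0.08 (adjusted p = 0.0159). CCP110, at 0.53 ± 0.27, did not pass (adjusted p = 0.184), although its untreated 4N libraries lay above all untreated 2N libraries. It passed when the 2 sorts of the same replicate number, assumed to be the same culture, were paired as a block (adjusted p = 0.00021). It also passed with the compared libraries alone (adjusted p = 0.00119) and with the replicate number as a block (0.0277). Without the 6 libraries it passed too (0.45, adjusted p = 1.41e-05). The SE of 0.27 is from a spread that all 6 groups share. The SASS6 call was lost without replicate 3 of the untreated 4N cells (adjusted p = 0.0721), and the CEP63 call without replicate 3 of either untreated group (0.0662 and 0.0535 for 2N and 4N) and under quantile normalization (0.0825). In the same comparison 15 of 16 G2/M genes rose, by a median of 1.49, and 11 of 16 G1/S genes fell.

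Under cytochalasin D limma called 0 of the 10 genes and 0 of the 17974 tested. At an unadjusted p under 0.05 there were 3 of the 10 and 959 genes in all. All 10 estimates were above 0, by a median of 0.22, from 0.04 for CEP63 to 0.58 ± 0.26 for PLK4. The 16 G2/M genes had a median of 0.98 in this comparison, and 0 of the 16 passed. With the culture as a block CCP110 was higher (0.39, adjusted p = 0.0395), where 0.2% of all genes were higher. Without the 6 libraries 5 were higher, PLK4 by 0.76, CEP152 by 0.39, CCP110 by 0.38, STIL by 0.34 and CENPJ by 0.34, where 5.56% of all genes were higher.

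Under ZM447439, CEP152 alone of the 10 was higher in 4N cells (0.41 ± 0.10, adjusted p = 0.0242), where 5.41% of all genes were higher. The other 9 estimates, from 0.15 for PCNT to 0.54 for CCP110, did not pass. The CEP152 call was lost without replicate 2 or 3 of either ZM447439 group (adjusted p = 0.0725 to 0.135). It was also lost with no filter (0.0509), with RPKM + 0.01 (0.0927) and with the compared libraries alone (0.167). Without replicate 1 of the ZM447439 2N cells 5 of the 10 genes were higher, where 4114 of 17987 genes were called in either direction. With the culture as a block 5 passed: CEP152, CCP110 (adjusted p = 0.000973), SASS6 (0.0176), PLK4 (0.0288) and CEP135 (0.0401), where 13.2% of all genes were higher. Without the 6 libraries 9 passed, all but PCNT, where 22.9% of all genes were higher. The G2/M genes rose in this comparison too, 14 of 16 by a median of 1.52, and their part in the estimates of the 10 genes was not tested.

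**Figure D3:**
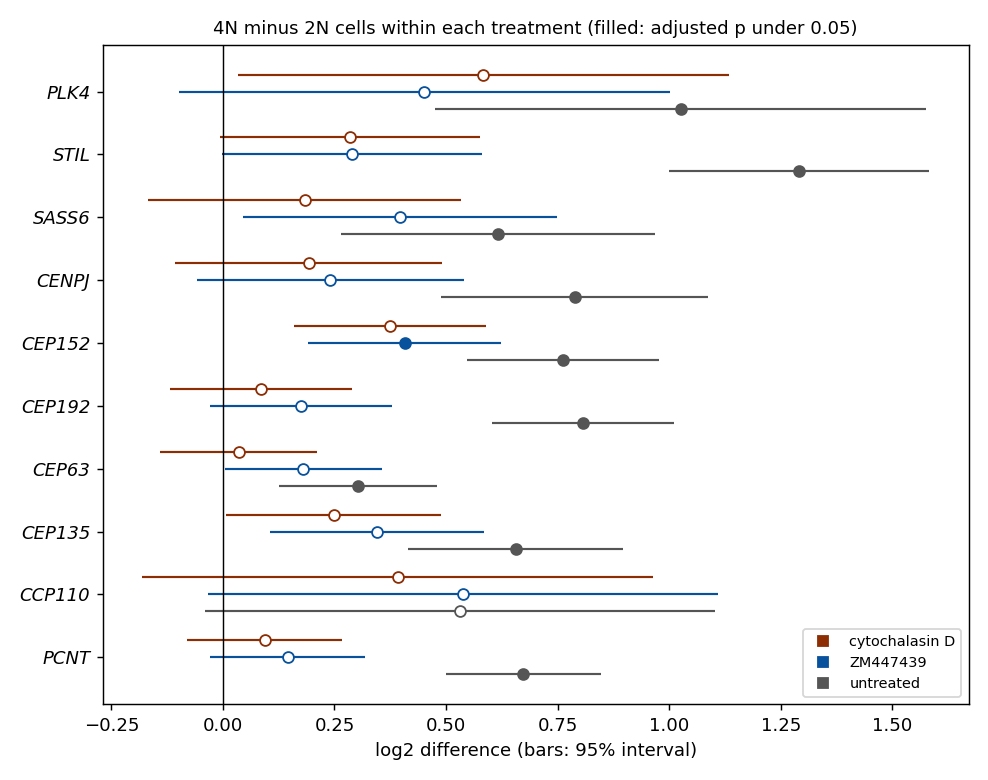
Log2 difference of each gene between 4N and 2N cells under cytochalasin D, under ZM447439 and in untreated cells; points are estimates, bars are 95% intervals from limma, and filled points have an adjusted p under 0.05. In untreated cells 9 of 10 points are filled, under ZM447439 only CEP152 is, and under cytochalasin D none of the 10 is.

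An interaction term tested if the sorts differed by another amount under a drug than without it. With cytochalasin D the difference of 4N minus 2N cells was smaller than in untreated cells for 3 of the 10 genes, with an interaction of -1.01 ± 0.19 for STIL (adjusted p = 0.00417), -0.72 ± 0.14 for CEP192 (adjusted p = 0.00373) and -0.58 ± 0.12 for PCNT (adjusted p = 0.00534), where 6.68% of all genes were lower. With ZM447439 the same 3 genes passed, at -1.003 for STIL, -0.63 for CEP192 and -0.53 for PCNT, where 8.04% of all genes were lower. These interactions share the untreated libraries. PLK4 did not pass with either drug (-0.44 ± 0.37 with cytochalasin D and -0.57 ± 0.37 with ZM447439). With the culture as a block, CENPJ was added with cytochalasin D (adjusted p = 0.0215), and PLK4 and CENPJ with ZM447439 (0.0384 and 0.0259), where 15% and 17.6% of all genes were lower. Without the 6 libraries PLK4 stood at -0.098 with cytochalasin D and -0.28 with ZM447439, and CENPJ at -0.303 and -0.3. In that fit STIL, CEP192, PCNT, CEP135 and CEP63 passed with cytochalasin D, where 19.8% of all genes were lower, and STIL, CEP192, PCNT and CENPJ with ZM447439, where 27% were. The PCNT interaction with cytochalasin D was lost under quantile normalization (adjusted p = 0.0515). The G2/M genes had a median interaction of -0.46 with cytochalasin D and -0.08 with ZM447439, and 3 of 16 were lower with each and 1 higher with ZM447439. Without replicate 1 of the ZM447439 2N cells, which enters the shared error, 5 of the 10 genes and 5 of the 16 G2/M genes passed with cytochalasin D, where 2293 of 17987 genes were called.

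Around the 10 genes, 74 other centrosome genes were listed by role, and 72 of them were tested. In untreated 4N against untreated 2N cells 44 rose and 2 fell, by a median of 0.36, where 15.2% of all genes rose and the median was 0.04. Of 25 further genes of duplication and centriole assembly 18 rose, led by ASPM (2.02 ± 0.28), a spindle-pole protein of which mutations cause microcephaly, WDR62 (1.21 ± 0.18), another microcephaly protein, and CNTROB (1.16 ± 0.07), a centriole protein. Of 14 genes of the pericentriolar matrix and the γ-tubulin complex 9 rose, led by TACC3 (1.42 ± 0.13), which with CKAP5 (1.09 ± 0.13) stabilises spindle microtubules. Of 7 genes of the linker that ties the centrosomes together 2 rose and 1 fell: NEK2, the kinase that dissolves it, rose by 1.68 ± 0.33, while CCDC102B fell by 0.59 ± 0.12.

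With the drugs most of these 72 genes fell as well. In 4N cells 59 fell and 9 rose with cytochalasin D, by a median of -0.85, and 57 fell and 4 rose with ZM447439, by a median of -0.70, where 42.3% and 34.9% of all genes fell. In cytochalasin D 4N cells against untreated 4N cells the difference was -3.73 ± 0.28 for ASPM, -3.19 ± 0.18 for WDR62 and -2.86 ± 0.14 for POC1A, a centriole protein. It was -2.58 ± 0.10 for TUBG1, a γ-tubulin gene, -3.49 ± 0.25 for SPAG5, a spindle protein, and -3.21 ± 0.22 for CEP128, a protein of the subdistal appendages. CCDC102B rose, by 1.83 ± 0.12 with cytochalasin D (adjusted p = 1.92e-09) and by 1.17 ± 0.12 with ZM447439 (adjusted p = 8.63e-07).

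Of the 72 genes, 52 were lower and 10 higher in cytochalasin D 4N than in untreated 2N cells, by a median of -0.45. In ZM447439 4N cells 45 were lower and 8 higher, by a median of -0.32. Of all genes 37.8% and 26.2% were lower in these comparisons. In the cytochalasin D comparison the medians by role were -0.44 for duplication and assembly, -0.75 for matrix and γ-tubulin complex, -0.32 for the linker, -0.73 for the appendages and -0.22 for the satellites, beside -1.19 for the 10 genes. The 10 genes were picked as the core of the pathway with earlier results known, so this order describes them only.

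**Figure D4:**
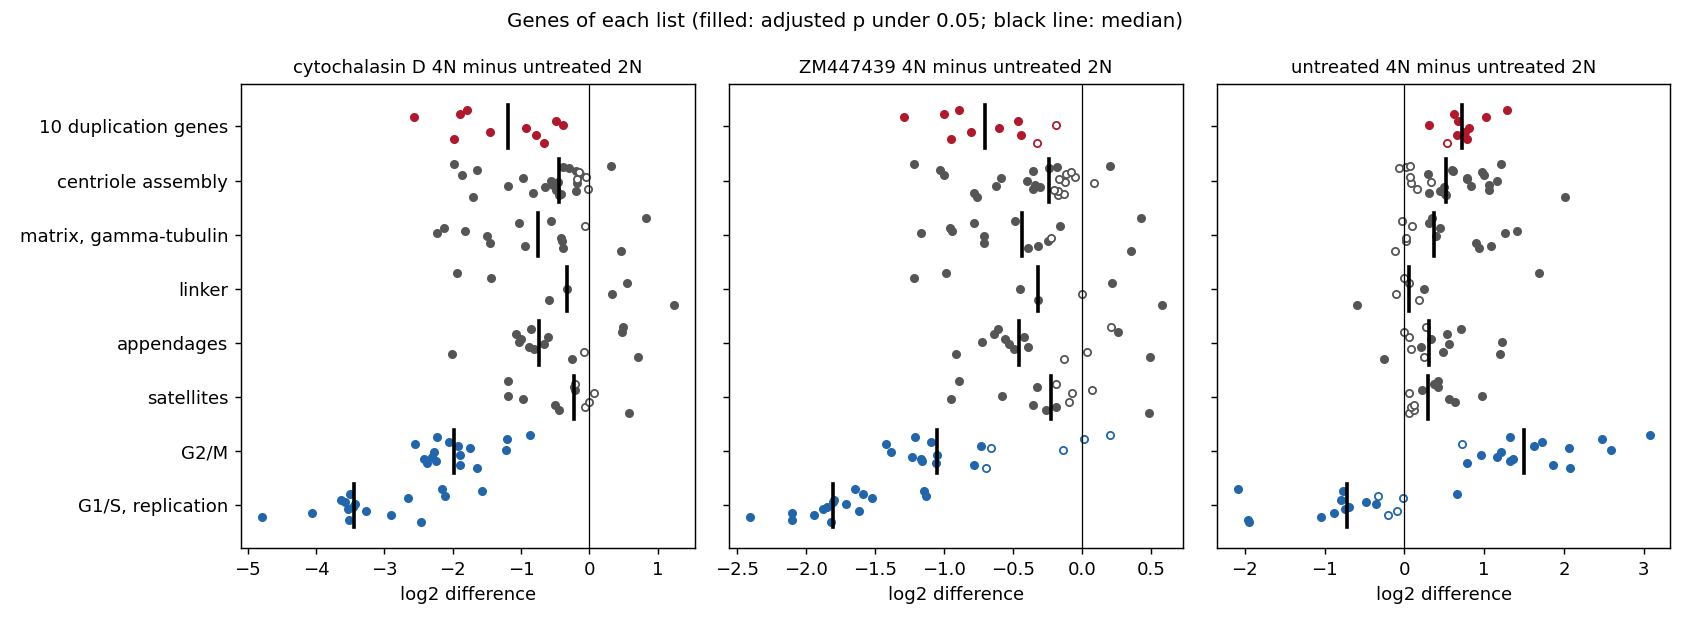
Log2 differences of the genes of each list in cytochalasin D 4N, ZM447439 4N and untreated 4N cells, each minus untreated 2N cells, with separate scales; filled points have an adjusted p under 0.05 and black lines are medians. The 10 duplication genes all lie below 0 in both drug panels and above 0 in the untreated panel, and the G1/S genes have the lowest median in all 3 panels.

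The genes most like a member over the 18 libraries were found by Pearson r among 11333 protein-coding genes, as a description in which all points share the 6 groups. Nearest to PLK4 were CDCA5 (0.996), which protects sister chromatid cohesion, MELK (0.995) and C21orf58 (0.994). For SASS6 they were INTS12 (0.994), PSMC3 (0.993) and MIS18A (0.993), for CEP63 MZT1 (0.984), CCDC85C (0.984) and CCNK (0.983), and for PCNT LCORL (0.984), TPR (0.982) and CNTROB (0.979).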

How the data were processed

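Per the submitters' processing notes, CASAVA 1.8.2, TopHat2 and edgeR were used with hg19; a read counter is not stated there. The authors deposited RPKM values for 18 libraries prepared without strand. With the genomic span of GENCODE 29, 88.9% to 89.5% of values under 200 reads were whole reads within 0.05, against 10.1% to 10.9% with exon length (10% for evenly spread values). RPM was the deposited RPKM times the span; for 3 of the 10 genes a span within 5% of the annotated length was found that gave whole reads within 0.01. Counting error, taken as Poisson, was 2.26% to 10.5% at the lowest value of each gene and covers sampling of reads only. Spans were found for 52338 genes (90.6%), and 0 columns were left unused.

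limma 3.58.1 in R 4.3.3 fitted 1 mean per group over the 18 libraries (12 residual and 3.12 prior degrees of freedom, trended), two-sided, with a threshold of 0.05, and was tested on simulated data. Errors of levels are SD. The members and lists were chosen with earlier results of these data known. A further marker is not reported here. All 10 members are named, and of each further list at most the 3 called genes with the largest difference per comparison. Sorts of the same treatment and replicate number were taken as the same culture, an assumption from the number alone. Deviations from group means correlated at 0.299 to 0.781 in all 9 such pairs. Between different numbers they ran from -0.722 to 0.619, so for some libraries another number matched as well or better. The fit with this culture block has 6 residual degrees of freedom. The same numbers also correlated between the drugs within a sort (0.387 to 0.632 in all 6 pairs). Drug and untreated libraries of a number correlated at 0.287 to 0.375 for numbers 1 and 3, but at -0.291 to -0.1635 for number 2. Alternatives were other pseudocounts, filters, scalings and blocks, single groups, and left-out libraries. Promoters came from RefSeq, where CENPJ is listed under another symbol.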

Additional observations from a re-analysis of the deposited data

Results flagged for a closer look

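The difference between 4N and 2N cells itself differed between a drug and no treatment in 6 cases, each by limma's interaction term. For STIL the 4N minus 2N difference was 0.29 with each drug and 1.29 in untreated cells. Its interaction, the value with a drug less that in untreated cells, was -1.01 with cytochalasin D and -1.003 with ZM447439. For CEP192 the interactions were -0.72 and -0.63, and for PCNT they were -0.58 and -0.53, in the same order. Of all genes 6.68% and 8.04% had a lower interaction at the same threshold. Both drugs are set against the same untreated libraries.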

How the results depend on the processing

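Falls with either drug kept their direction under every alternative run. With a pseudocount of 2 RPM the cytochalasin D interaction had 5 of the 10 genes, where 1749 of 17974 genes were called in either direction. With no filter, with RPKM + 0.01, or with the compared libraries alone, 0 passed between the ZM447439 sorts. Of all genes 932 of 41657, 895 of 28341 and 1 of 17877 were called in these fits in turn. With RPKM + 0.5 and a mean of at least 0.5 RPKM only 2 of the 10 genes were tested: 2 passed in the 4 drug comparisons within a sort and between cytochalasin D 4N and untreated 2N cells, 1 between the untreated sorts, between the drugs, between ZM447439 4N and untreated 2N cells and in each interaction, and 0 between the ZM447439 sorts. Fewer genes were then tested by construction. Of the 13037 tested, 7190 to 9191 were called in the 4 drug comparisons within a sort and 8686 between cytochalasin D 4N and untreated 2N cells. Between the untreated sorts 2272 were called, between the drugs 5672, and between ZM447439 4N and untreated 2N cells 5906. The interactions had 1023 with cytochalasin D and 1317 with ZM447439, and the ZM447439 sorts 998.

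With the replicate number as a block, 3 passed between the ZM447439 sorts, where 2577 of 17974 genes were called. In that fit CEP63 passed between ZM447439 4N and untreated 2N cells (-0.187, adjusted p = 0.0359). With the culture pairing as a block, 5 passed between the ZM447439 sorts, 1 between the cytochalasin D sorts and 5 in the ZM447439 interaction. Of 17974 genes 4321, 129 and 5028 were called in these in turn. Without the 6 libraries that stood apart, 9 passed between the ZM447439 sorts, 5 between the cytochalasin D sorts and 5 in the cytochalasin D interaction. Of 17964 genes 8154, 2155 and 5152 were called in these in turn.

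Leaving out each library in turn gave 7 to 9 genes between the untreated sorts and 0 to 5 between the ZM447439 sorts. It gave 5 to 8 between the drugs, 3 to 5 in the cytochalasin D interaction and 3 to 4 in the ZM447439 interaction. Elsewhere it gave 8 to 10, with 0 between the cytochalasin D sorts. In the fit of all 18 libraries, 15.2% of all genes were higher between the untreated sorts and 5.41% between the ZM447439 sorts. Between the drugs 27.1% were lower in that fit, in the interactions 6.68% and 8.04%, and elsewhere 26.2% to 42.3%. Between the cytochalasin D sorts 0% were higher. The 5 between the ZM447439 sorts and the 5 in the cytochalasin D interaction came without replicate 1 of the ZM447439 2N cells. Of 17987 genes 4114 and 2293 were then called. The 0 between the ZM447439 sorts came without replicate 2 or 3 of either ZM447439 group, where 307 to 361 genes were called.

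Signs turned only for estimates that did not pass. The CCP110 interaction with ZM447439 was -0.0136 with a pseudocount of 2 RPM, -0.0784 with RPKM + 0.5 and -0.247 to 0.373 without single libraries, and with cytochalasin D -0.322 to 0.0278. The difference between drugs in PCNT was 0.0162 under a common median ratio, 0.0333 under quantile normalization and -0.0912 to 0.0638 without single libraries. The SASS6 interaction with ZM447439 was 0.0456 without the 6 libraries, and CEP63 between the cytochalasin D sorts was -0.0351 to 0.103 without single libraries. The cause was not tested. In all, 1094 of the values under other alternatives kept direction and call, 45 gained a call, 10 lost it and 5 turned sign. Under left-out libraries 2115 kept both, 14 gained a call, 20 lost it and 11 turned sign. Among the genes whose signs turned, the SE between 2 groups was 0.27 for CCP110, 0.17 for SASS6 and 0.08 each for PCNT and CEP63. For PLK4, whose signs did not turn, it was 0.26. The lowest count of reads, 91, was that of SASS6.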
